A study of Rattus norvegicus with 18 samples.

Results

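The 2 miRNAs described here, rno-miR-199a-3p and rno-miR-34c, were picked because their levels were high at embryonic day 10 (E10) or E13 of rat brain development. They are 2 of the 795 mature sequences counted, of which 725 had at least 1 read. The levels at E10 and E13 therefore chose both miRNAs and are given as a description, with no test. A tag, that is a unique sequence with its number of reads, was assigned to a miRNA if its overlap with the mature sequence held no mismatch, its start lay within 3 nt of the mature start and its 3' end overshot the mature one by no more than 3 nt. In this way 219 tags with 1661750 reads belonged to rno-miR-199a-3p and 61 tags with 161029 reads to rno-miR-34c, and 0 of these 280 tags fitted another sequence of the table.

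Small RNA was sequenced from untreated Sprague Dawley rats at 8 stages, E10, E13, E17 and postnatal days 0 (P0), 3, 7, 14 and 28. By the labels, the E10 and E13 tissue is forebrain and all later tissue is somatosensory cortex, while the methods of the study describe whole cortex at the first stages and its dorsolateral part later, with meninges taken off. Stage and tissue therefore cannot be told apart in any comparison of E10 or E13 with later stages. There were 9 tissue samples, 2 of them from P0, and sequencing each in a run 1 and a run 2 (technical replicates) gave 18 libraries, with 4899010 to 11043948 clean reads in run 1 and 12769251 to 16590379 in run 2. The longest tags had 30 nt in the run 1 libraries and 39 nt in those of run 2. In bulk tissue, fewer cells of a type and less RNA per cell cannot be told apart.

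A miRNA is cut from a hairpin precursor and guides silencing of messenger RNAs, which it finds mainly through its seed, bases 2 to 8 from the 5' end. miR-199a is best known from mesenchyme, vessel walls and the skeleton of the embryo, and its gene is usually expressed together with that of miR-214. miR-34c is a member of the miR-34/449 family, whose miR-34 genes are induced by p53 in response to DNA damage, and the family is required for the formation of motile cilia in epithelia, the ependyma of the brain among them. The mature sequences are shown because the seed defines this family and because the end variants described further on alter it. They are printed 5' to 3' from RefSeq (build GRCr8), with the seed in capitals, and the first 2 are the arms of the same hairpin.
rno-miR-199a-3p: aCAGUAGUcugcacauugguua
rno-miR-199a-5p: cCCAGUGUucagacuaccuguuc
rno-miR-34c-5p: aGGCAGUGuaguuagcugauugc
rno-miR-34b-5p: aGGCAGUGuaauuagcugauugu
rno-miR-34a-5p: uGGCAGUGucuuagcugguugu
rno-miR-449a-5p: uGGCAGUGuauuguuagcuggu
rno-miR-449c-5p: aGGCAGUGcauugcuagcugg
RefSeq names the sequence of rno-miR-34c as the 5p arm. Its seed was held by 5 sequences of the table, those of miR-34a, miR-34b, miR-34c, miR-449a and miR-449c, whereas the seed of rno-miR-199a-3p was held by that sequence alone. In GRCr8 the mature rno-miR-199a-3p lies on the plus strand of chromosome 13 (chr13:77116294-77116315), inside the span of Dnm3, in the gene Mir199a2, and Mir214 starts 5310 bases after Mir199a2 ends. The mature rno-miR-34c lies on the minus strand of chromosome 8 (chr8:60306133-60306155), inside the span of Hoatz, with 441 bases between Mir34c and Mir34b. The RefSeq table used does not say whether these hairpins are exonic or intronic, and tags cannot tell apart genes that yield the same mature sequence.

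The runs of a tissue sample differed by much more than counting error, and the libraries fell into sets that the labels do not give. Between 30.4% (P3) and 72.6% (P0 replicate 1) of the sequences with at least 50 reads per 1000000 clean reads (TPM) differed by more than 1 log2 unit between the runs. The log2 ratio of run 1 to run 2, taken over the 98 sequences with a mean of at least 50 TPM in each tissue sample, was then compared between tissue samples. These are correlations across miRNAs, which are not independent replicates. Both miRNAs reach this limit themselves, with lowest means of 72.8 TPM for rno-miR-34c and 228 TPM for rno-miR-199a-3p, in P0 replicate 1. Among E13, E17, P0 replicate 1, P7, P14 and P28 the correlation of each pair lay between 0.814 and 0.972, and between P0 replicate 2 and P3 it was 0.946. Between these sets it lay between 0.295 and 0.421, and between E10 and the other tissue samples between 0.185 and 0.454. The level of rno-miR-34c and the start of rno-miR-199a-3p followed these sets, and the level of rno-miR-199a-3p did not, with a log2 ratio of run 1 to run 2 of -0.27 to 2.23 in the 6 tissue samples of the first set and 0.53 to 1.33 in the other 3. In these 6 tissue samples rno-miR-34c was 6.57-fold to 11.5-fold lower in run 1 than in run 2, and in the other 3 it was 1.38-fold to 2.26-fold higher. In the same 6 samples 9.32% to 14.2% of the rno-miR-199a-3p reads of run 1 started 1 nt after the mature start, against 3.04% to 6.15% in run 1 of the other 3 and 4.03% to 5.46% in run 2 of all 9. The cause was not tested, and the values of both miRNAs are therefore given for each run.

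**Figure D1:**
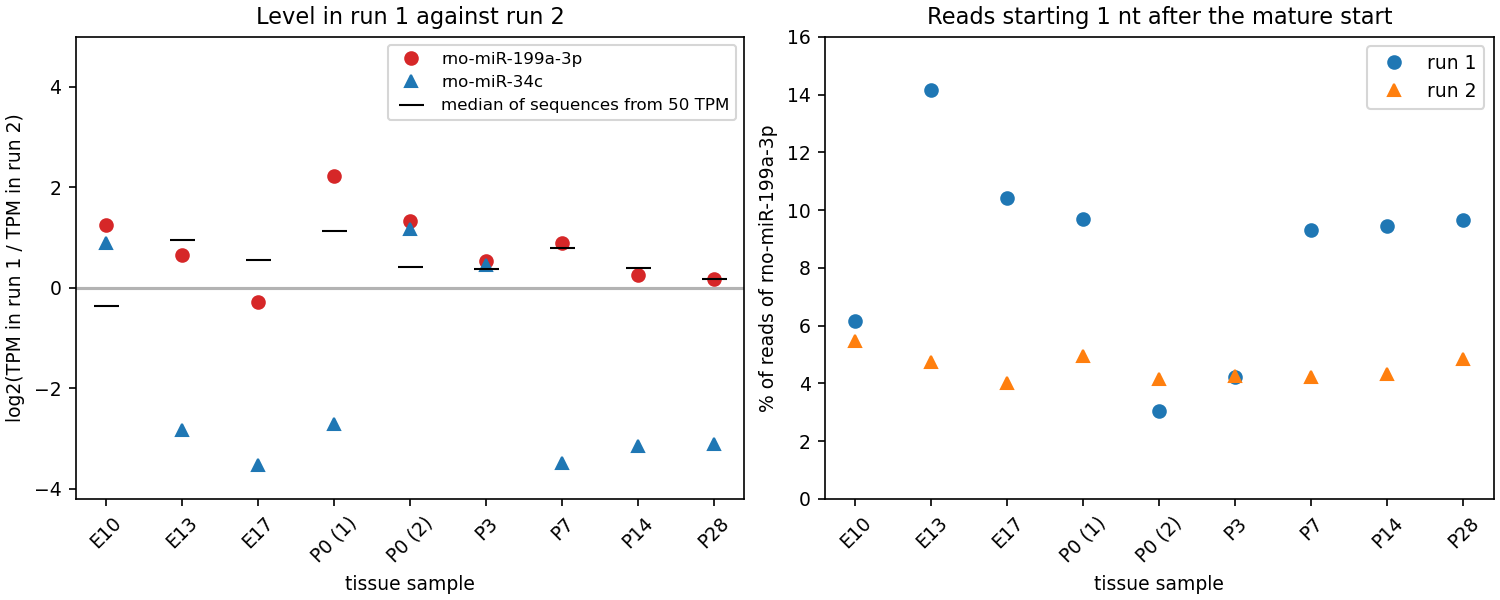
Log2 ratio of the TPM of run 1 to that of run 2 for both miRNAs in each of the 9 tissue samples (left, with the median over all sequences of at least 50 TPM as a bar), and the percentage of rno-miR-199a-3p reads that started 1 nt after the mature start in each run (right). The rno-miR-34c points lie at or below -2.72 in 6 samples and between 0.47 and 1.17 at E10, P3 and in P0 replicate 2, and the same 6 samples have the high run 1 shares on the right.

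rno-miR-199a-3p was among the most abundant miRNAs of the early tissue and dropped to a minor one at E17. At E10 its level was 41919 TPM in run 1 and 17577 TPM in run 2, and at E13 it was 50153 TPM and 31816 TPM. It ranked 7 (run 1) and 12 (run 2) of 795 sequences at E10 and 3 and 6 at E13, and on the mean of both runs it made up 2.97% and 4.10% of the clean reads. At E17 its level was 315 TPM in run 1 and 381 TPM in run 2, ranks 76 and 65. The P0 samples had 375 and 80.3 TPM (replicate 1) and 500.1 and 198.6 TPM (replicate 2), with a mean of 289 ± 85.9 TPM (SD, n = 2 tissue samples). The level was higher again at P3, with 1185 and 819.7 TPM, and at P7, with 2629 and 1421 TPM. It was 1924 and 1617 TPM at P14 and 1121 and 991 TPM at P28. The E10 and E13 libraries did not overlap with the 14 cortex libraries in either run, and the lower early stage was 15.9-fold above the highest cortex stage in run 1 and 10.9-fold in run 2.

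In order of the mean of both runs, the stages ran E13, E10, P7, P14, P28, P3, E17 and P0. The run values of E13 and E10 overlapped, as did those of P7 and P14, of P28 and P3, and of E17 and P0, so neighbours within these pairs did not differ beyond the spread of the runs when the runs are pooled. Within each run E13 lay above E10, 1.20-fold in run 1 and 1.81-fold in run 2. From pair to pair the run values did not overlap: the lowest value of E10 and E13 was 17577 TPM against at most 2629 TPM at P7 and P14, whose lowest value was 1421 TPM against at most 1185 TPM at P28 and P3, whose lowest value was 819.7 TPM against at most 500.1 TPM at E17 and P0. E13 was 1.38-fold above E10 on the mean of both runs. These steps are set against technical runs only. Single tissue samples stood behind all stages but P0, where the 2 tissue samples were 1.33-fold apart in run 1, 2.47-fold in run 2 and 1.53-fold on the mean of both runs. The steps from 1421 to 1185 TPM and from 819.7 to 500.1 TPM are smaller than the run 2 gap, so these 2 steps are not shown to exceed the spread between tissue samples.

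rno-miR-34c was high at E10 only, with 5109 TPM in run 1 and 2729 TPM in run 2, ranks 25 and 44 of 795. At E13 it had 90.7 TPM in run 1 and 648 TPM in run 2, a 7.14-fold difference within the same tissue sample. E17 had 20.9 and 240.3 TPM. P0 replicate 1 had 19.2 and 126 TPM and P0 replicate 2 had 406 and 179.8 TPM, which gave a mean of 183 ± 155 TPM (SD, n = 2 tissue samples). The values of the 2 replicates were 21.1-fold apart in run 1 and 1.42-fold apart in run 2. P3 had 455 and 329 TPM, P7 50.4 and 567 TPM, P14 76.1 and 674 TPM and P28 63.4 and 544 TPM. The libraries with under 100 TPM were all of run 1, and their number of rno-miR-34c reads was low, from 133 in P0 replicate 1 to 648 at E13.

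The E10 level exceeded the highest later stage 11.2-fold in run 1, where P3 came next, and 4.05-fold in run 2, where P14 came next. In the order of the means (P3, P14, E13, P7, P28, P0 and E17) the run values of each neighbouring pair of the other stages overlapped. Within each run, E17 lay below E13, P3, P7, P14 and P28 both times, and E13 lay above E17, P7 and P28 both times. E13 was not set apart from the cortex: in run 2 its 648 TPM lay below the 674 TPM of P14, and in run 1 its 90.7 TPM lay below P3 and P0 replicate 2. For rno-miR-34c the high level was therefore at E10 alone, and for rno-miR-199a-3p at E10 and E13.

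As background to these patterns, which the choice of the miRNAs fixes in part, 568 sequences had at least 10 reads in at least 2 tissue samples. On the mean of both runs, 43.0% of them were highest at E10, like rno-miR-34c, and 16.5% were highest at E13, like rno-miR-199a-3p. Both E10 and E13 exceeded all 7 cortex samples for 35.6% of them. The ratio of rno-miR-199a-3p to rno-miR-34c within a library was 8.20 in run 1 and 6.44 in run 2 at E10, but 553 and 49.1 at E13, and in the cortex samples it lay between 1.23 (P0 replicate 2) and 52.1 (P7) in run 1 and between 0.636 (P0 replicate 1) and 2.51 (P7) in run 2. It lay below the E10 ratio in both runs in P0 replicate 2 and at P3, and in the other cortex samples it lay above it in run 1 and below it in run 2.

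**Figure D2:**
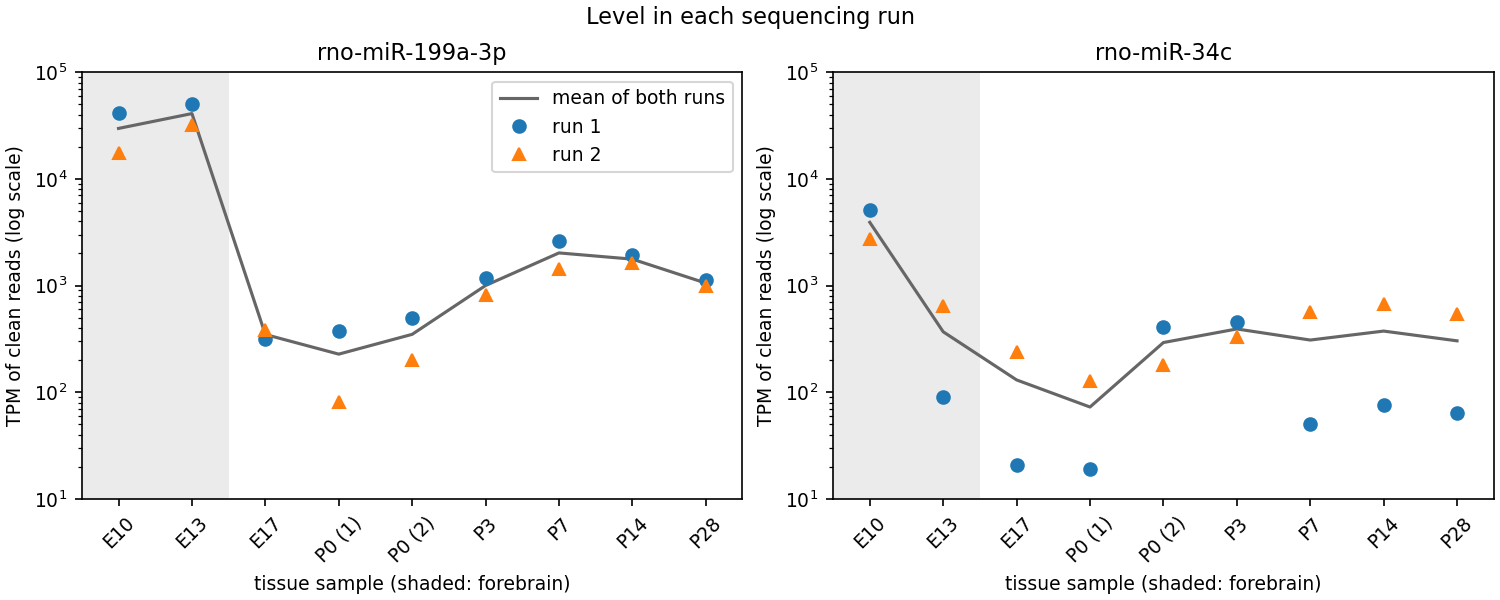
Level of rno-miR-199a-3p (left) and rno-miR-34c (right) in TPM of clean reads on a log axis, in run 1 (circles) and run 2 (triangles) of each tissue sample, with the mean of both runs as a line and the forebrain samples shaded. rno-miR-199a-3p lies at 17577 TPM or above at E10 and E13 and at 2629 TPM or below later in both runs, whereas for rno-miR-34c E10 alone stands above all other libraries of both runs and the runs lie far apart in 6 samples.

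The other arm of the hairpin and the miR-214 arms were also highest at E10 or E13, at much lower levels. rno-miR-199a-5p, the opposite arm of the hairpin, had 359.8 TPM in run 1 and 42.6 TPM in run 2 at E10 and 206 and 227 TPM at E13, and its mean was at most 7.37 TPM in the cortex (P3). rno-miR-214-3p, from the neighbouring hairpin, had 12.2 and 176 TPM at E10, 129 and 239.6 TPM at E13 and at most 2.40 TPM in the cortex (P7). rno-miR-214-5p had 15 reads over all 18 libraries, and each of them came from E10 or E13. For these 3 sequences the means of E10 and E13 both lay above all 7 cortex samples. The 3p arm of miR-199a had 94.1 to 725 times the reads of the 5p arm over the run 1 libraries (median 260) and 31.4 to 412 times over the run 2 libraries (median 203). At E10 this ratio was 116 in run 1 and 412 in run 2, and at E13 it was 243 and 140.4, so the order of these stages turned with the run.

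Within the seed family of rno-miR-34c, E10 was on the mean of both runs also the highest tissue sample for rno-miR-34b-5p, rno-miR-449a and rno-miR-449c. rno-miR-34c itself was picked for a high early level and adds nothing to this. Over all 568 sequences with at least 10 reads in at least 2 tissue samples the share highest at E10 was 43.0%. rno-miR-449a had 206 TPM in run 1 and 4004 TPM in run 2 at E10, a 19.4-fold difference between the runs, 40.05 and 36.8 TPM at E13 and a mean of at most 13.5 TPM in the cortex. rno-miR-449c had 402 and 65.7 TPM at E10, 66.4 and 80.3 TPM at E13 and at most 4.54 TPM in the cortex, so in run 2 it was higher at E13 than at E10. rno-miR-34b-5p, which shares its primary transcript with miR-34c, was the sequence on which the runs came closest at E10, with 54.2 and 43.1 TPM at E10, 3.08 and 2.66 TPM at E13 and 0.998 to 3.82 TPM in the cortex. rno-miR-34a-5p differed from the others. It had 0.634 TPM in run 1 (7 reads) and 9.26 TPM in run 2 (152 reads) at E10 and a mean of 0.532 TPM at E13, and its highest value was 20.2 TPM at P28, with 4.199 TPM in run 1 and 36.2 TPM in run 2.

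The summed level of the 5 sequences with this seed at E10 was 5773 TPM in run 1 and 6852 TPM in run 2, closer than the runs were for any of the 5. Its makeup turned with the run: rno-miR-34c held 88.5% of these reads in run 1 and 39.8% in run 2, and rno-miR-449a held 3.57% and 58.4%. At E13 rno-miR-34c held 45.3% of the reads of the family in run 1 (of 1432 reads) and 84.3% in run 2, and in the cortex libraries it held 64.3% (P0 replicate 1) to 99.2% (P0 replicate 2) in run 1 and 82.0% (P0 replicate 1) to 96.7% (P14) in run 2, and rno-miR-34a-5p reached its highest share, 6.17%, at P28. The passenger arm rno-miR-34c-3p had 162 reads in all libraries together, 97 of them in run 2 of E10.

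Of the 12 sequences related to the miRNAs by seed, hairpin or neighbourhood, 8 had both E10 and E13 above all 7 cortex samples, 7 were highest at E10, 3 at E13 and 2 in the cortex. The last 2 were both arms of miR-34a. Of the 9 with at least 10 reads in at least 2 tissue samples, as in the background counts, 6 had both early samples above the cortex (35.6% of the 568), 5 were highest at E10 (43.0%) and 2 at E13 (16.5%). The relatives were picked for their kinship with miRNAs chosen on this contrast.

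**Figure D3:**
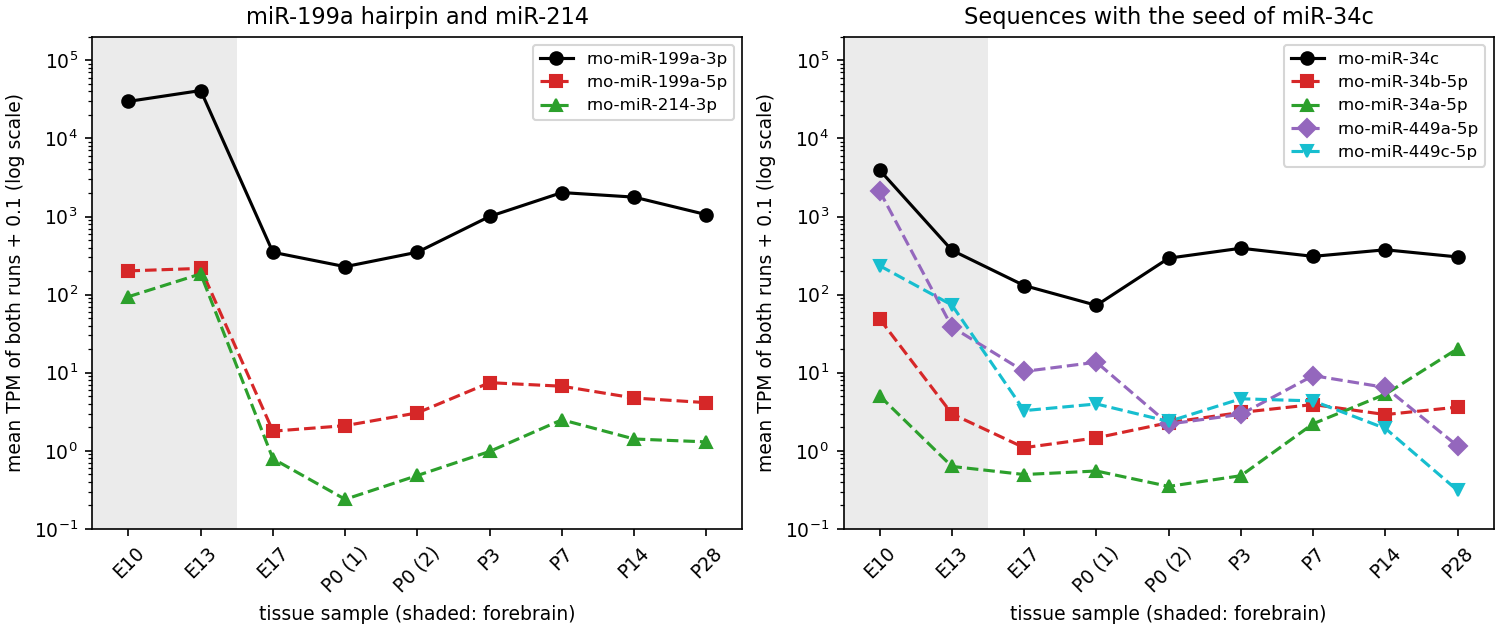
Mean TPM of both runs plus 0.1 on a log axis in each tissue sample for rno-miR-199a-3p with the opposite arm and rno-miR-214-3p (left) and for rno-miR-34c with the other sequences that hold its seed (right), with the forebrain samples shaded. On the left the means of the relatives lie at 94.0 TPM or above at E10 and E13 and at 7.37 TPM or below later, and on the right rno-miR-34a-5p alone ends at its highest value, 20.2 TPM at P28.

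Within the cortex alone, a contrast on which the choice of the miRNAs did not rest, neither miRNA changed past the threshold over development by edgeR, and rno-miR-199a-3p passed it by DESeq2. The slope of the log2 count on the stage order was fitted over the 7 cortex samples with edgeR's quasi-likelihood test, and p-values were adjusted over all 529 sequences tested by the Benjamini-Hochberg method, with 0.05 as the threshold. For single tissue samples per stage these p-values rest on the scatter around the slope. Of the 529 sequences, 111 rose (21.0%) and 105 fell (19.8%), and without TMM factors, which scale libraries to each other, 126 rose and 77 fell. rno-miR-199a-3p had a slope of 0.46 log2 units per stage (SE 0.19, adjusted p = 0.0755, edgeR), and 16.4% of the sequences had a higher slope. This result lay close to the threshold. By DESeq2 the slope was 0.47 (adjusted p = 0.0138), the lowest adjusted p of all settings tried. With the run number as a replicate block and each run as a library the slope was 0.44 (adjusted p = 0.0422, edgeR), a fit that counts each tissue sample as 2 libraries, and without P28 it was 0.68 (adjusted p = 0.0367, edgeR). Without TMM factors it was 0.58 (adjusted p = 0.0338, edgeR), while the median slope of the 529 sequences moved from -0.07 to 0.04. Relative to that median the slope was 0.53 with TMM and 0.54 without. With run 1 alone it was 0.43 (adjusted p = 0.288, edgeR) and with run 2 alone 0.44 (adjusted p = 0.0803, edgeR).

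rno-miR-34c had a slope of 0.21 in the cortex (SE 0.17, adjusted p = 0.339, edgeR). Its direction differed between the runs, with -0.63 in run 1 alone (adjusted p = 0.401, edgeR) and 0.26 in run 2 alone (adjusted p = 0.0976, edgeR), and it was -0.056 with the replicate block (adjusted p = 0.882, edgeR). Of the 12 related sequences 8 had enough reads for the test, and by edgeR 2 rose and 0 fell, also when unadjusted p-values were counted, beside 21.0% rising and 19.8% falling of the 529 sequences tested. By DESeq2 2 rose and 1 fell (2 and 2 by unadjusted p-values), the latter being rno-miR-449c (slope -0.52, adjusted p = 0.0152), whose slope was -0.53 by edgeR (SE 0.24, adjusted p = 0.101). The 2 that rose were the arms of miR-34a, a p53-induced miRNA that shares the seed of rno-miR-34c but has its gene on another chromosome. rno-miR-34a-5p rose by 1.19 log2 units per stage (SE 0.15, adjusted p = 0.000188, edgeR) and rno-miR-34a-3p by 1.37 (SE 0.20, adjusted p = 0.000414, edgeR). rno-miR-34a-5p had 0 to 42 reads in each cortex library of run 1 and 7 to 601 in each of run 2, and it was not tested in run 1 alone.

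**Figure D4:**
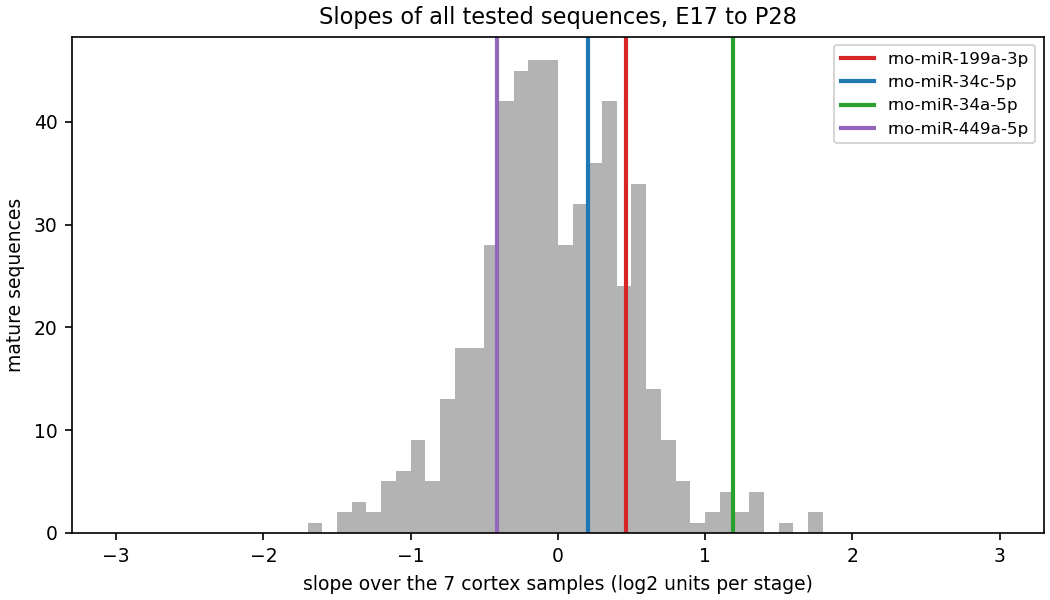
Histogram of the slopes over the 7 cortex samples in log2 units per stage for the 529 tested sequences, with 4 of them marked by lines. rno-miR-199a-3p (0.46) and rno-miR-34c (0.21) lie to the right of the median of -0.07, rno-miR-449a-5p (-0.42, adjusted p = 0.132, edgeR) to its left, and rno-miR-34a-5p (1.19) far in the right tail.

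Pooled over all libraries, the mature form held 39.6% of the reads of rno-miR-199a-3p and 82.5% of those of rno-miR-34c, and the rest were end variants. Most reads of both miRNAs came from E10 and E13. In each library of these stages the mature form of rno-miR-199a-3p led. In each cortex library but run 2 of P0 replicate 1 its form without the last base led, with 47.2% against 26.0% in run 1 of P3. The 5 most frequent tags of rno-miR-199a-3p and that of rank 8 are shown as deposited. They are in DNA letters and with bases 2 to 8 of each tag in capitals, since tags that start elsewhere carry another seed.
mature form, 22 nt: aCAGTAGTctgcacattggtta
without the last base, 21 nt: aCAGTAGTctgcacattggtt
start 1 nt earlier, 22 nt: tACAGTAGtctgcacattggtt
start 1 nt later, 21 nt: cAGTAGTCtgcacattggtta
with an A after the mature end, 23 nt: aCAGTAGTctgcacattggttaa
with a T after the mature end, 23 nt: aCAGTAGTctgcacattggttat
Pooled over all libraries the form without the last base held 34.3%, the form shown with the earlier start 6.33% and that with the later start 5.53%. That with a further A held 3.53% and that with a further T 1.74%. Not shown are a second form with the earlier start, 23 nt long (2.10%), and a form without the last 2 bases (2.03%). Neither of the seeds of the shifted forms was held by another sequence of the table.

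At E10 45.7% (run 1) and 52.6% (run 2) of the rno-miR-199a-3p reads had the mature 3' end, and at E13 it was 47.7% and 50.02%. In the cortex the share was 41.0% and 41.4% at E17, 39.7% and 47.2% in P0 replicate 1, 31.1% and 38.5% in P0 replicate 2, 29.9% and 38.3% at P3, 36.8% and 35.3% at P7, 34.6% and 33.9% at P14 and 30.5% and 32.9% at P28. Reads that ended before the mature end outnumbered those with the mature end in 13 of the 14 cortex libraries and in 1 of the 4 libraries of E10 and E13. The exception in the cortex was run 2 of P0 replicate 1, with 1193 reads of the miRNA.

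Within the cortex the trend of this shortening did not pass the test after adjustment over the 6 relations computed (3 shares for each of the 2 miRNAs). The share of reads ending before the mature 3' end was correlated with the stage order with Pearson's r = 0.78 over the 7 cortex samples (exact permutation p = 0.0401, adjusted p = 0.179, two-sided) and Spearman's rho = 0.90 (exact permutation p = 0.00952, adjusted p = 0.0571). It lay at 49.3% and 51.0% at E17 and at 61.0% and 59.3% at P28 in runs 1 and 2. Without E17 and P28, the samples farthest from the median stage, r was 0.60 over 5 samples. In run 1 alone r was 0.57 and in run 2 alone 0.80, neither past the threshold. The share with the mature 3' end gave r = -0.74 (exact permutation p = 0.0595, adjusted p = 0.179) and rho = -0.74 (exact permutation p = 0.0706, adjusted p = 0.212), and r was -0.50 without E17 and P28. The share with the mature 5' end gave r = 0.21 (exact permutation p = 0.683, adjusted p = 0.82), which turned to -0.60 without E17 and P28.

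The start of rno-miR-199a-3p was mature in 78.1% (run 1 of E13) to 87.3% (run 1 of P0 replicate 2) of the reads. In run 2, where the libraries were more alike, starts 1 nt earlier made up 11.8% at E10, 9.28% at E13 and 7.99% to 10.7% in the cortex. Starts 1 nt later made up 5.46%, 4.73% and 4.03% to 4.95%. These reads carry a seed shifted by 1 base. An A directly after the mature end was more frequent than a T in each of the 18 libraries, with 3.08% to 5.87% of the reads against 1.94% to 3.26%. The bases that follow rno-miR-199a-3p in its hairpin were not determined here, so added bases and longer cuts of the hairpin cannot be told apart for it.

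The start of rno-miR-34c was nearly uniform by comparison. Between 97.7% and 100% of its reads in each library had the mature start, and starts 1 nt later were absent from all 9 run 1 libraries and at most 0.234% in run 2. The mature 3' end held 85.5% and 82.0% of the reads at E10, 80.2% and 83.3% at E13 and 72.7% to 84.3% in the cortex libraries. The lowest share, 72.7%, was in run 2 of P0 replicate 1 (95% Wilson interval 70.6% to 74.6%, which covers counting error only), where 12.8% of the reads ran past the mature end, against 3.24% to 8.52% in the other 17 libraries. Reads that ended 1 nt short made up 5.31% to 12.8%. None of its 3 shares followed the stage order in the cortex, with r of 0.22, -0.09 and 0.23 for the mature 5' end, the mature 3' end and reads ending before it (exact permutation p = 0.681, 0.856 and 0.644, adjusted p = 0.82, 0.856 and 0.82).

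The hairpin of miR-34c shows which added bases can come from the gene. It is printed from RefSeq with the mature sequence in capitals, and the bases that follow it there are UAA.
Mir34c hairpin, GRCr8, chr8:60306091-60306167, minus strand: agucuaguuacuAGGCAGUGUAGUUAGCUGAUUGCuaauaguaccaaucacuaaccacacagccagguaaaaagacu
A T directly after the mature end is thus the letter of the hairpin and an A is not. In each of the 18 libraries an added A was more frequent than an added T, with 2.31% to 7.83% of the rno-miR-34c reads against 0% to 3.30%. At E10 the added A held 2.37% in run 1 and 4.12% in run 2 and at E13 2.31% and 4.06%, and the cortex libraries had 3.91% to 6.31% in run 1 and 4.48% to 7.83% in run 2. In the cortex libraries these values rest on 133 to 10647 reads of the miRNA.

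**Figure D5:**
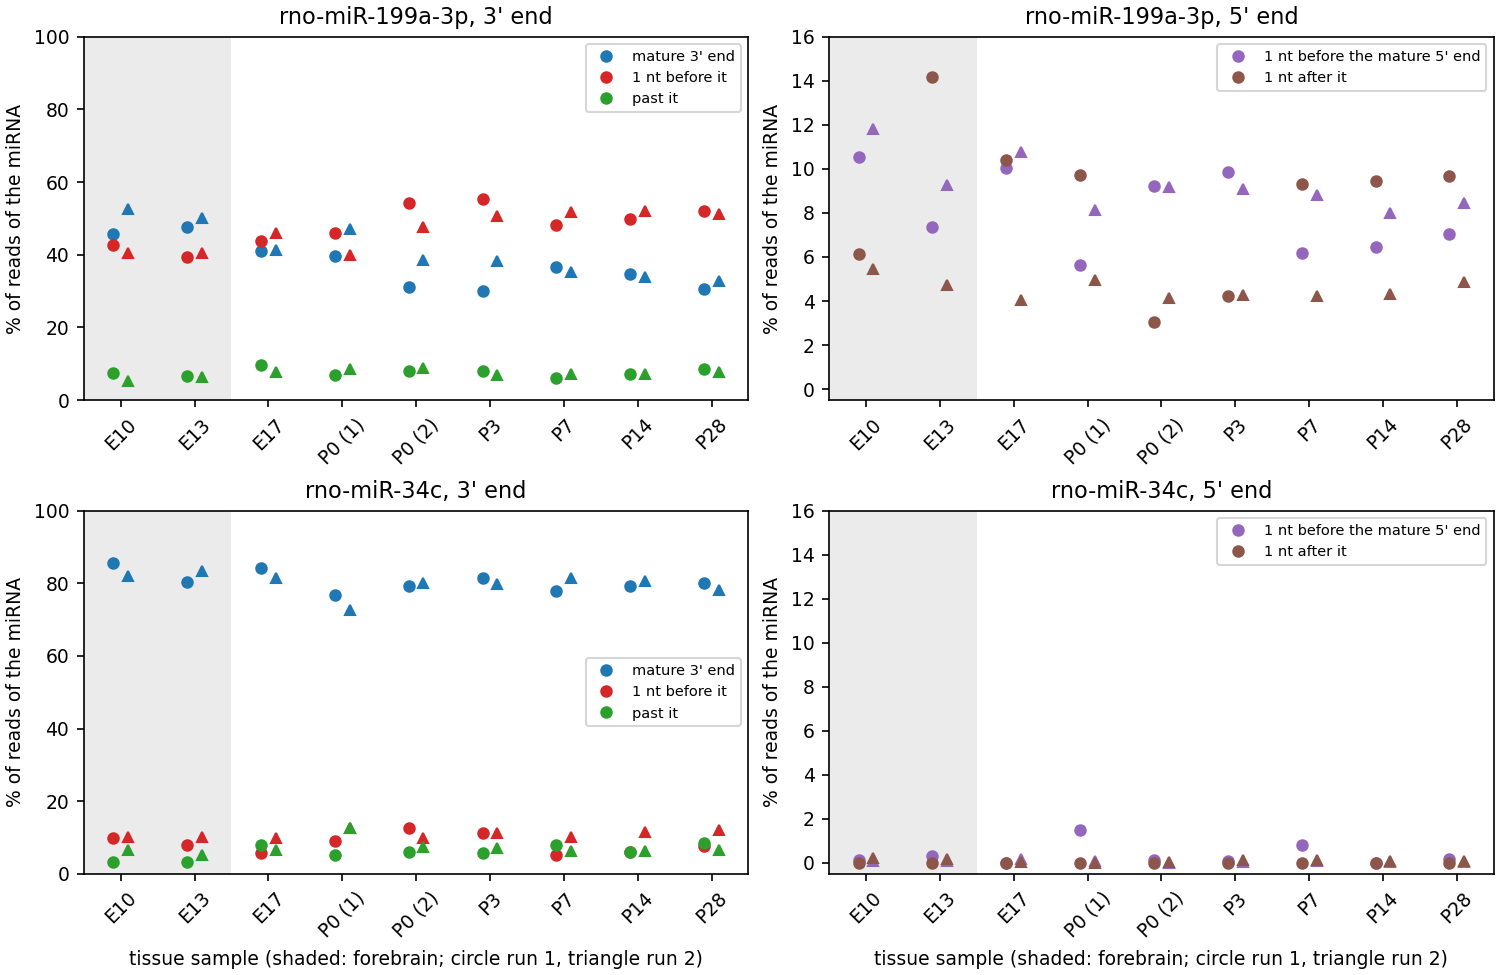
Percentage of the reads of rno-miR-199a-3p (top) and rno-miR-34c (bottom) by 3' end (left) and by shifted 5' start (right) in each tissue sample, with run 1 as circles, run 2 as triangles and the forebrain samples shaded. For rno-miR-199a-3p the form ending 1 nt early lies above the mature end in most cortex libraries, whereas for rno-miR-34c the mature end lies between 72.7% and 85.5% throughout and shifted starts stay at or under 1.504%.

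Reads with the mature 5' end and a single mismatch, which would include edited molecules as well as sequencing errors, were counted in libraries with at least 1000 reads of the miRNA. Positions are counted from 1 at the mature 5' end, with the mature base first, and base letters are those of the tags. For rno-miR-199a-3p they made up 3.012% of the reads in run 1 (95% Wilson interval 2.96% to 3.07%) and 1.20% in run 2 (1.16% to 1.25%) at E10, and 2.53% to 8.47% over the 9 run 1 libraries against 1.20% to 3.65% over the 9 run 2 libraries. They were more frequent in run 1 in 9 of 9 tissue samples. For rno-miR-34c they made up 4.65% to 5.53% in the 3 run 1 libraries with enough reads and 1.16% to 4.12% in the 9 run 2 libraries. The change with the highest share in any single library was A19G for rno-miR-34c, in run 1 of P0 replicate 2. It held 1.21% of the reads there and was also seen in run 1 of P3 (0.640%) and of E10 (0.169%), while in run 2 it held at most 0.0296% in any library. For rno-miR-199a-3p it was G4C in run 1 of P28, with 0.790% there and 0.0136% in run 2 of P28. Neither led in the deepest library of its miRNA, run 1 of E10, where A13C had 1643 reads against 92 for G4C in rno-miR-199a-3p and T9G had 274 against 100 for A19G in rno-miR-34c. Both changes were singled out after their values were seen.

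The sequences whose levels were most like those of the miRNAs were looked for by Pearson's r of log2(TPM + 1) over the 9 tissue samples among 298 other sequences with a mean of at least 10 TPM. The samples share libraries and depth, and they include E10 and E13, whose levels chose the miRNAs. Each run alone holds the same contrast of early and later samples, and r is a description only. For rno-miR-199a-3p these were rno-miR-409a-3p (r = 0.97), rno-miR-199a-5p (0.97), rno-miR-214-3p (0.96), rno-miR-483-5p (0.96) and rno-miR-375-3p (0.94), and r was at least 0.87 for each of them in either run alone. Over the cortex samples alone r was 0.84, 0.85, 0.93, 0.78 and 0.75 in the same order. The highest level among these 5 was that of rno-miR-409a-3p, with 489 TPM at E10, 504 TPM at E13 and 67.9 to 159 TPM in the cortex. rno-miR-483-5p, whose hairpin lies in the imprinted gene Igf2, had 93.7 and 180.3 TPM against 0.813 to 13.2 TPM.

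For rno-miR-34c the 5 sequences were rno-miR-101b-3p (r = 0.94), rno-miR-152-3p (0.94), rno-miR-145-5p (0.91), rno-miR-103-3p (0.91) and rno-miR-107-3p (0.89). Over the cortex samples alone r was 0.83, 0.87, 0.83, 0.73 and 0.89 in the same order. In run 2 alone r was 0.38 for rno-miR-101b-3p and -0.09 for rno-miR-107-3p but 0.96 for rno-miR-152-3p and 0.92 for rno-miR-145-5p. rno-miR-152-3p had 1345 TPM at E10, 214 TPM at E13 and 6.85 to 87.4 TPM in the cortex, and rno-miR-145-5p, a miRNA of smooth muscle, had 131, 12.5 and 2.56 to 35.3 TPM.

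Some lists of miRNAs that mark other cell types summed to more in the early samples than in the cortex, and their part in the levels of rno-miR-199a-3p and rno-miR-34c was not tested. The counts of sequences above the cortex in both early samples stand beside 35.6% of the 568 sequences with at least 10 reads in at least 2 tissue samples, a filter that was not applied to the lists, and sums are means of both runs unless a run is named. The neural list (miR-9, miR-124, miR-125b and miR-128) had a summed level of 97376 TPM at E10 and 54385 TPM at E13 (run 1 70674, run 2 38097) against 108846 to 220476 TPM in the cortex samples, and 0 of its 11 sequences had both early samples above the cortex. Its highest sequence, rno-miR-128-3p, had 1654 TPM at E10, 5064 TPM at E13 and 23324 to 173758 TPM in the cortex. The sum without that sequence was not computed. The blood list, with 4 of its 5 entries in the table, summed to 1273 TPM at E10 (run 1 702, run 2 1844), 131 TPM at E13 (run 1 170, run 2 91.2) and 56.3 to 110.1 TPM in the cortex. Its E13 sum in run 2 thus lay inside the range of the cortex means. The list was led by the erythroid rno-miR-451-5p, with 1049 TPM at E10, and 2 of its 8 sequences had both early samples above the cortex. The mesenchyme and smooth muscle list summed to 19269 TPM at E10 (run 1 25202, run 2 13336), 24581 TPM at E13 and 6494 to 9532 TPM in the cortex, with 4 of its 9 sequences above the cortex in both early samples. It was led by rno-miR-140-3p, which had 17575, 23186 and 5351 to 9196 TPM, and it contains rno-miR-199a-5p and miR-214. The epithelial list, with 6 of 7 entries in the table, summed to 135 TPM at E10, 121 TPM at E13 and 12.9 to 39.6 TPM in the cortex, led by rno-miR-203a-3p, with 4 of 11 sequences above the cortex in both early samples and 2 at 0 in all libraries.

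The Hox cluster list, whose miRNAs come from genes of the trunk and hindbrain, summed to 44.99 TPM at E10 (run 1 46.99, run 2 42.99), 60.4 TPM at E13 (run 1 88.1, run 2 32.7) and 0.618 to 5.01 TPM in the cortex, led by rno-miR-10a-5p, with 4 of 7 sequences above the cortex in both early samples. The list of ciliated cells (miR-34b and miR-449a) summed to 2161 TPM at E10, with 265 TPM in run 1 and 4058 TPM in run 2, 43.5 TPM at E13 and 4.40 to 15.5 TPM in the cortex, and 3 of its 4 sequences had both early samples above the cortex. It was led by rno-miR-449a-5p. All its sequences are among the 12 related sequences counted above, so this list repeats those values and is not separate from them. The early embryo list, with 3 of 4 entries in the table, summed to 6.66 TPM at E10 (run 1 1.27, run 2 12.1), 1.79 TPM at E13 and at most 0.503 TPM in the cortex, with rno-miR-292-3p as the highest. Endothelial miR-126, led by rno-miR-126a-5p, summed to 192 TPM at E10, 105 TPM at E13 (run 1 151, run 2 58.3) and 49.9 to 204 TPM in the cortex, and the muscle list, led by rno-miR-1b, to 665, 848 and 56.3 to 2838 TPM. In the endothelial and muscle lists 0 sequences had both early samples above the cortex, and in the early embryo list 2 of 5.

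The runs were also compared by test over the 9 tissue samples. The test takes the 9 differences as independent, whereas tissue samples of a set deviated together, so its p-values do not stand for 9 independent comparisons. rno-miR-199a-3p was higher in run 1 in 8 of 9 samples, by 0.78 ± 0.75 log2 units (SD, n = 9; exact sign-flip permutation p = 0.0156, adjusted p = 0.0625 over 8 comparisons, two-sided). rno-miR-34c was higher in run 1 in 3 of 9 samples, with a mean log2 ratio of run 1 to run 2 of -1.81 ± 2.02 (SD, n = 9; exact sign-flip permutation p = 0.0312, adjusted p = 0.0625). The smallest p this test can give is 0.00391. For the 3 shares of rno-miR-199a-3p the mean differences were -2.76 percentage points for the mature 5' end, -3.66 for the mature 3' end and 3.41 for reads ending before it (exact sign-flip permutation adjusted p = 0.0625, 0.0625 and 0.0813, n = 9). For rno-miR-34c they were -0.30, 0.59 and 0.59 percentage points (exact sign-flip permutation adjusted p = 0.365, 0.574 and 0.574, n = 9).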

How the data were processed

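The authors sequenced small RNA on a Solexa genome analyzer, filtered the reads for quality, trimmed adapters and deposited each clean tag of the 18 libraries with its count of reads, not normalized. The members and lists used here were chosen with earlier results of these data known. Mature sequences came from RefSeq (692), the primers of the study (4 not in RefSeq) and its candidate list (99). The sequence of rno-miR-199a-3p was assembled from its primers, and that of rno-miR-34c was the only sequence of the table with the 14 bases given by the list of nucleotide changes. Tags from 18 nt on were matched without mismatch, and a tag that fitted several sequences was counted for each. TPM is the count divided by all clean reads of the library, times 1000000. Slopes over the 7 cortex samples used counts summed over the runs and sequences with at least 10 counts in at least 2 of these samples (edgeR 4.0.16, TMM, R 4.3.3). DESeq2 1.42.0 was the alternative. Runs with the same number deviated together: the log2 ratio of run 1 to run 2 correlated at 0.295 to 0.972 across sequences in the 21 pairs of cortex samples, a pairing taken from the data. Other tests used Python 3.11.15 with scipy 1.17.1 and enumerated all permutations. The matching recovered 1789 of 1789 simulated tags, which were cut from the counted sequences with ends inside the limits, a check of the code only. In simulated counts the slope test recovered 173 of the 199 sequences given a change of 0.6 log2 units per stage (86.9%). It made 4 wrong calls among 521 sequences. That change is larger than the cortex slopes of rno-miR-199a-3p (0.46) and rno-miR-34c (0.21), and counts were drawn independently for each sample. The recovery does not apply to slopes as small as theirs. The named genes were both miRNAs, their relatives by seed, hairpin or cluster, the 5 most alike by level, and the highest of each marker list. The sequences miR-150, miR-429 and miR-302 of those lists were not used here.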

Additional observations from a re-analysis of the deposited data

Results flagged for a closer look

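The share of rno-miR-34c reads with the mature 5' end stood out in the 4 libraries of P0, where the gap of the lowest library to the next was 0.953 of the whole range. Run 1 of P0 replicate 1 had 97.7% and the other 3 libraries had 99.9% to 99.96%. That library held 133 reads of rno-miR-34c, so the difference comes to very few reads. The limit for such gaps is one that chance passes in about 1 of 20 groups of independent values, 8 groups were looked at, and these 4 libraries are 2 tissue samples sequenced in both runs.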

How the results depend on the processing

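The levels at E10 and E13 moved beyond the spread of the runs for rno-miR-199a-3p only, and under 1 of the 3 settings that change which tags count: with only tags identical to the mature sequence they were 12131 TPM at E10 and 15778 TPM at E13. The cortex slope of rno-miR-199a-3p was positive under all 18 settings and past the threshold under 5 of them, without TMM factors (0.58), with all clean reads as library size (0.57), with DESeq2 (0.47), with the replicate block (0.44) and without P28, and leaving out each tissue sample gave 0.34 to 0.68. That of rno-miR-34c was past it under none, turned to -0.63 with run 1 alone and to -0.056 with the replicate block, and ranged from 0.09 to 0.35 with a tissue sample left out. The block fit takes the runs of a tissue sample as separate libraries. It left both arms of miR-34a rising and gave 113 rising and 147 falling sequences. The number of rising sequences was 26 with run 1 alone and 69 with identical tags, and leaving out each tissue sample gave 63 (without P14) to 113, and the number of falling sequences was 32 with run 1 alone and 73 to 113 with a tissue sample left out. Rising sequences were 51.4% of the calls, 62.1% without TMM factors and 43.5% with the block. The correlations of the end shares with the stage passed the adjusted threshold under no setting named here. With run 2 alone and with tags of 20 nt or longer, that of the mature 5' end share of rno-miR-34c turned to -0.22 and -0.37, and that of its mature 3' end share to 0.074 and 0.054. With a tissue sample left out, the correlation for rno-miR-34c ranged from -0.19 (without P0 replicate 1) to 0.42 for the mature 5' end, from -0.76 to 0.38 (without E17) for the mature 3' end and from -0.42 (without E17) to 0.68 for reads ending before it, and for the mature 5' end of rno-miR-199a-3p from -0.78 (without E17) to 0.46. The causes were not tested. The 133 to 648 reads of rno-miR-34c in 6 run 1 libraries limit the precision of its shares there, and 1 tissue sample per stage leaves the spread between animals unknown.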
